A study of Mus musculus with 28 samples.

Results

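Broad domains of acetylated histone H3 lysine 27 (H3K27ac), the regions of at least 8000 bp in the deposited H3K27ac peak list that overlapped no more than 1 peak of the glucocorticoid receptor (GR) list, numbered 762 of 63313 H3K27ac peaks. Of the 916 peaks of that length, the other 154 overlapped 2 or more GR peaks and were kept apart as a reference. Among the 762 domains, 480 overlapped no GR peak and 282 overlapped 1. The deposited list also has a column headed filtered, whose criterion is not given in the sources used here. It was TRUE for 365 domains, all under 10 kb, and FALSE for 397, all of 10 kb or more. Both kinds were kept. All libraries came from bone marrow-derived macrophages of male C57BL/6 mice aged 8 to 10 weeks, grown from marrow for 5 days in medium conditioned by L cells, so every group, vehicle included, shares that source of growth factor. The groups were vehicle, 500 nM corticosterone (Cort), 100 nM dexamethasone (Dex) and 10 ng per ml interleukin-4 (IL4), with exposures of 24 h; the H3K27ac vehicle titles give no time. Each group had 3 H3K27ac libraries, and the GR assay had 4 vehicle, 4 Cort, 4 Dex and 3 IL4 libraries in 2 labelled batches. The labels do not say whether the libraries of a group came from separate animals, so p-values measure the spread between these libraries, which may in part be technical.

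H3K27ac is placed by acetyltransferases such as p300 and CBP on the nucleosomes of active promoters and enhancers. Long, unbroken stretches of the mark are often found around genes that define a cell's identity, where many enhancers lie side by side. In macrophages such loci are opened by the lineage factor PU.1 together with C/EBP and AP-1 proteins. Corticosterone, the natural glucocorticoid of mice, and dexamethasone, a synthetic one, bind GR, which then binds DNA and recruits coactivators or corepressors. IL4 acts through its receptor and the transcription factor STAT6 and drives the alternative activation of macrophages. A level of the mark in bulk chromatin cannot separate fewer cells carrying it from less of it per cell.

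Of 1005 miRNA hairpins in the RefSeq table for GRCm38.p6, the mm10 build, 13 lay inside broad domains, 1 in each of 13 domains. Their 20 mature forms had 20 distinct seeds, so none shared one. The mature forms from 4 of these domains are shown because their domains moved in different ways: those of Mir223 and Mir146 were lower with IL4, that of Mir3109 was lower with Dex and higher with IL4, and that of Mir22 was called in no comparison. The sequences are from RefSeq, 5′ to 3′, and capitals mark the seed, bases 2 to 8.
mmu-miR-223-3p: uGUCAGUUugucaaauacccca
mmu-miR-223-5p: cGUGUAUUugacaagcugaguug
mmu-miR-146a-5p: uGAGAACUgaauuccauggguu
mmu-miR-146a-3p: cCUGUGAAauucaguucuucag
mmu-miR-3109-5p: aAUGGAUGcgaugguucccaugcu
mmu-miR-3109-3p: uAGGGCCAucucauccagaua
mmu-miR-22-3p: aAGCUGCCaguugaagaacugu
mmu-miR-22-5p: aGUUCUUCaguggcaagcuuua
The miR-223 gene, which is myeloid-restricted and restrains granulocyte activation, lies on the plus strand at chrX:96242817-96242926 in a domain of 10.5 kb beside Vsig4. Levels are TMM-normalised CPM, read counts scaled to the total reads in tested peaks of each library, 1 value per library in the order of the replicate numbers. That domain held 202, 205 and 211 CPM in vehicle, 296, 276 and 201 CPM with Cort, 287, 278 and 304 CPM with Dex and 115, 126 and 89.5 CPM with IL4. All IL4 libraries lay below all others, and the Cort libraries overlapped vehicle. The log2 fold change was -0.90 ± 0.15 (SE) with IL4, with an adjusted p of 8.48e-04 in edgeR's quasi-likelihood test, and -1.396 ± 0.15 between IL4 and Dex, with an adjusted p of 3.29e-05. All Dex libraries lay above vehicle, with a log2 change of 0.49 ± 0.15 (edgeR adjusted p = 0.0811). The miR-146a gene, a feedback inhibitor of Toll-like receptor signalling through Irak1 and Traf6, lies at chr11:43374397-43374461 in a domain whose counts were 73.2, 74.8 and 89.3 CPM in vehicle and 33.5, 42.1 and 31.7 CPM with IL4, a log2 change of -1.14 ± 0.16 (edgeR adjusted p = 2.42e-04). The Mir3109 hairpin lies in the domain over Anxa2. The Mir22 domain, over Wdr81, changed by 0.08 ± 0.12 with IL4 (edgeR adjusted p = 0.677). ChIP of H3K27ac does not measure the miRNAs themselves.

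The promoters of 5 genes whose start sites lie inside domains with large changes are shown as the 250 bases before the start, from RefSeq on GRCm38.p6, with capitals marking CG dinucleotides, since the domains' promoters spanned the whole range from CpG-rich to CpG-free. Tsc22d3 (chrX:140542669-140542918, minus strand) and F7 (chr8:13025784-13026033, plus strand) are from domains raised by the glucocorticoids. The F7 domain rose more with IL4 (log2 2.73) than with Cort (1.25) or Dex (1.43). Fam20c (chr5:138754831-138755080, plus strand) is from a domain raised by IL4, and Irak3 (chr10:120201598-120201847, minus strand) and Fpr2 (chr17:17887574-17887823, plus strand) are from domains lowered by IL4.
Tsc22d3: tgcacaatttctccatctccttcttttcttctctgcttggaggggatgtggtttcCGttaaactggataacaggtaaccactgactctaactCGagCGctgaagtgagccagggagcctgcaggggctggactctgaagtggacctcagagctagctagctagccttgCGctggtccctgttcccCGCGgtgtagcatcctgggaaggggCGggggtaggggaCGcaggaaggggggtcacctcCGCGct
F7: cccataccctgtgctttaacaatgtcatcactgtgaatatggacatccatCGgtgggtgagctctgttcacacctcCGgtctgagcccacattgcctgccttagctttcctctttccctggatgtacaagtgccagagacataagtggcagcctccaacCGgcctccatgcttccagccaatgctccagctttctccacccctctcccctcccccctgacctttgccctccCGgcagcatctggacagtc
Fam20c: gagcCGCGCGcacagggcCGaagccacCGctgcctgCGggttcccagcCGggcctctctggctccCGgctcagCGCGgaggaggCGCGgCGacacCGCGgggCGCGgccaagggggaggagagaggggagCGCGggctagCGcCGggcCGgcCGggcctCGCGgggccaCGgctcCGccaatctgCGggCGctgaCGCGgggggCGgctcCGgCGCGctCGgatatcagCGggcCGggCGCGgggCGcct
Irak3: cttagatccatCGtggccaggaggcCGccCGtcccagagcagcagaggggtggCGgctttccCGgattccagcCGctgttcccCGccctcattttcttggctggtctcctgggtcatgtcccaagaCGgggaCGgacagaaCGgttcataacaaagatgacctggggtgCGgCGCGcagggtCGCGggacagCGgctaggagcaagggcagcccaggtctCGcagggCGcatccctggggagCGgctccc
Fpr2: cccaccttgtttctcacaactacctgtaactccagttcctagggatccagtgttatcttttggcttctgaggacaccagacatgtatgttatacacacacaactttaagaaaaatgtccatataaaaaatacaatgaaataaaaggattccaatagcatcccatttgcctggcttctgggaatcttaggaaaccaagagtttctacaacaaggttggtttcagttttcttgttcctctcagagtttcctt
The Fam20c promoter held 41 CG dinucleotides and that of Fpr2 held 0, with 19 in Irak3, 10 in Tsc22d3 and 4 in F7. On both strands, none of the 5 held TTCNNNNGAA (the STAT6 spacing), GAGGAAG (bound by PU.1), TGANTCA (AP-1) or TTGCNNAA (C/EBP). Over the 595 RefSeq promoters of 479 genes that start inside broad domains, the median ratio of observed to expected CpG was 0.668, against 0.744 for the 11797 promoters in any H3K27ac peak and 0.373 for all 32851. GAGGAAG was in 16.0% of the broad-domain promoters, 12.04% of those in any H3K27ac peak and 10.6% of all. TTCNNNNGAA was in 3.87%, 4.82% and 5.85% of the same sets, and in 5 of the 109 promoters in domains higher with IL4 and 2 of the 68 in domains lower with IL4. TGANTCA was in 6.39%, 4.81% and 6.75%, and TTGCNNAA in 8.24%, 7.93% and 9.56%. These matches are letters in a window of 250 bases, not measured binding sites.

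The deposited counts in peaks ranged from 6829787 to 15695771 reads per H3K27ac library and from 900063 to 1981582 reads per GR library. Each broad domain held at least 108 reads in every library, with a median of 1923. All 762 domains were among the 59881 tested peaks. They held 13.4 to 14.7% of the normalised counts in the libraries numbered 1, 15.6 to 16.7% in those numbered 2 and 14.7 to 15.7% in those numbered 3, so the share moved with the replicate number.

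In vehicle-treated macrophages the broad domains had a higher median density than shorter H3K27ac peaks. They ran from 8.00 to 42.6 kb, with a median of 10.1 kb, against a median of 1013 bp for all peaks, and 28 were 20 kb or longer. They made up 1.27% of tested peaks and 8.83% of all peak bases. Their median density in vehicle was 15.8 CPM per kb, within a range of 1.81 to 46.1. The median was 4.33 over all tested peaks, and it was higher in each longer class, from 3.18 under 1 kb to 13.5 from 4 to 8 kb. The 154 long peaks with 2 or more GR peaks had a higher median, 18.4, and the densest single peak, with 74.1 CPM per kb, was under 1 kb long. The 480 domains without a GR peak had a median of 15.3 and the 282 with 1 GR peak 16.6 CPM per kb. A neighbour was often close: 67.7% of the domains had another H3K27ac peak, of any length, within 1 kb, against 52.6% of peaks of 4 to 8 kb and 42.3% of all peaks.

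A start site of a named gene lay in 354 of the 762 domains (46.5%, against 12.1% of all peaks and 31.3% of peaks of 4 to 8 kb). A longer peak holds a start more often by its length alone, and lengths were not matched, so these shares are a description. Another 312 lay in or across a gene without its start, and 96 lay between genes. A gene span lay within 50 kb of 743 domains, which gave 616 genes, and 19 domains had none. The nearest gene is a label of position and need not be the gene a domain regulates. The longest domain, 42.6 kb at chr2:45076976-45119600, covered the start of Zeb2, a repressor needed to keep tissue macrophages in their identity. After it came domains at Pik3ap1, an adaptor of PI3K signalling (36.8 kb), at Capzb, an actin-capping subunit (36.4 kb), and at Zmiz1, a transcriptional coregulator (33.1 kb). The densest was at the start of Tnrc18 with 46.1 ± 5.05 CPM per kb (SD, n = 3), followed by one beside Lgmn, a lysosomal cysteine protease, with 41.6 ± 4.57. Spi1, which encodes PU.1, had a domain of 13.0 kb with 36.3 ± 4.53 CPM per kb.

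The cell type given in the labels was checked against marker genes. All 11 macrophage markers had an H3K27ac peak, with a median of 25.9 CPM per kb for each gene's densest peak, and Adgre1, Mpeg1 and Spi1 had a broad domain. No neutrophil, lymphoid, dendritic, mast cell, erythroid or fibroblast marker had one; among osteoclast markers Ctsk did, a lysosomal protease that macrophages also make. Ly6g, Mpo, Ngp, S100a9, Cd3e, Kit, Gata1, Col1a1 and Pdgfra had no tested H3K27ac peak near them. Other markers on these lists did have peaks: 7 of 11 neutrophil, 7 of 13 lymphoid, 8 of 10 dendritic, 4 of 9 mast cell, 3 of 10 erythroid, 3 of 11 fibroblast and 9 of 10 osteoclast markers. The densest of these were peaks at Xcr1 (24.0 CPM per kb), Ms4a1 (23.3), Pf4 (20.4), Nfatc1 (18.6), Tal1 (17.1), Csf3r (15.8), Batf3 (15.6), Ctsk (13.8) and Pdgfrb (13.1). Of the 21 housekeeping genes listed, all had a tested peak and none had a broad domain. The list does not cover all such genes: a domain of 8001 bp lay at the ribosomal protein gene Rpl3.

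Both glucocorticoids raised H3K27ac over some broad domains, and how many depended on whether libraries were paired by replicate number. The largest rise was at Tsc22d3, which encodes the anti-inflammatory protein GILZ and is a classical GR target. The question was which of the long acetylated regions responded to each steroid. Without that pairing, 14 of 762 domains were higher and 4 lower with Cort at an adjusted p under 0.05 in edgeR. Of all tested peaks 1.18% were higher and 0.376% lower. With Dex, 33 were higher and 12 lower, against 2.9% and 2.34% of all tested peaks. The domains' counts correspond to 1.84% higher and 0.525% lower with Cort and to 4.33% and 1.57% with Dex. In this fit the share of lower domains with Dex was under that of all peaks. Peaks of 4 to 8 kb, with any number of GR peaks, had 3.61% and 0.568% with Cort and 6.71% and 3.07% with Dex. The domains' shares thus lay below those of the next shorter class. The median standard error was 0.147 in the domains, 0.165 in that class and 0.31 over all peaks. The median log2 fold change over the domains was 0.07 with Cort and 0.05 with Dex, and over all peaks 0.00 and 0.01. With total-count scaling the Dex calls were 30 higher and 28 lower, and scaling on the low-count peaks gave 9 and 6; the Cort calls were 14 and 6, and 5 and 0. Libraries with the same replicate number deviated together. With the number as a block, 139 domains were higher and 62 lower with Cort, and 165 and 110 with Dex. That fit placed 6.44% of all tested peaks higher with Cort and 6.13% lower, and 9.91% and 10.3% with Dex. The domains' shares in it were 18.2% and 8.14% with Cort and 21.7% and 14.4% with Dex. For lower domains with Dex the order against all peaks was therefore reversed. Peaks of 4 to 8 kb had 17.0% and 9.69% with Cort and 21.6% and 15.9% with Dex in the same fit. Both comparisons use the same 3 vehicle libraries.

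The Tsc22d3 domain, 8.02 kb at chrX:140536577-140544600, held 77.4, 75.4 and 79.8 CPM in vehicle, 224, 189 and 247 CPM with Cort, 253, 213 and 260 CPM with Dex and 80.2, 95.5 and 99.9 CPM with IL4. Every Cort and Dex library lay above every vehicle and IL4 library. The log2 fold change was 1.504 ± 0.13 with Cort and 1.64 ± 0.13 with Dex (edgeR adjusted p = 6.54e-05 and 2.16e-05). The domain over F7, which encodes coagulation factor VII, held 35.9, 31.0 and 37.5 CPM in vehicle, 78.2, 72.5 and 97.7 CPM with Cort, 88.2, 84.7 and 109 CPM with Dex and 226, 233 and 234 CPM with IL4. It was higher than vehicle in every library of all 3 treatments, with log2 fold changes of 1.25 ± 0.14, 1.43 ± 0.14 and 2.73 ± 0.15 for Cort, Dex and IL4 (edgeR adjusted p = 5.77e-04, 1.03e-04 and 7.75e-07). The domain inside Sh3kbp1, an adaptor in receptor endocytosis, rose from 89.6, 99.2 and 118 CPM in vehicle to 206, 214 and 245 with Cort and 215, 207 and 283 with Dex. Its log2 fold changes were 1.11 ± 0.15 and 1.20 ± 0.15 (edgeR adjusted p = 0.00180 and 5.94e-04). IL4 raised this domain too, by 0.77 (edgeR adjusted p = 0.00201). A domain in Irf2, which encodes a repressor in interferon signalling, rose by 0.99 ± 0.11 and 1.06 ± 0.11, and with IL4 by 0.80 ± 0.11 (edgeR adjusted p = 3.18e-04, 9.98e-05 and 1.48e-04).

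Other domains higher with both steroids lay at Zmiz1 (1.05 with Cort and 1.05 with Dex, log2), Htr2a, a serotonin receptor gene (0.66 and 0.78), Klf13, a Krüppel-like factor (0.61 and 0.69), Lamp1, a lysosomal membrane protein (0.64 and 0.64), and Apobec1, a cytidine deaminase (0.60 and 0.71). This Zmiz1 domain was higher with IL4 as well (0.57, edgeR adjusted p = 0.0357). Those of Klf13 and Apobec1 had 0.09 and 0.30 with IL4 and were not called. Among 8 domains of genes listed as glucocorticoid-induced, 3 were higher with Cort and the same number with Dex: those of Tsc22d3, Klf13 and Dusp1, the MAP kinase phosphatase. The Dusp1 domain, 21.1 kb from the gene, held 205, 215 and 192 CPM in vehicle, 288, 327 and 298 CPM with Cort, 288, 396 and 279 CPM with Dex and 195, 206 and 205 CPM with IL4, with every Cort and Dex library above vehicle and the IL4 libraries within the vehicle range. The other 5, near Anxa1, Bcl6, Cebpb, Msr1 and Zfp36, had log2 values of -0.35 to 0.36 with Cort and -0.31 to 0.49 with Dex and were not called. With the replicate block, Cebpb was higher and Anxa1 lower with both steroids, and Msr1 and Zfp36 were higher with Dex, which made 4 higher and 1 lower of the 8 with Cort and 6 and 1 with Dex. A domain near Gpcpd1, a glycerophosphodiesterase gene, was called with Dex (1.02 ± 0.20, edgeR adjusted p = 0.0115) and with Cort had 0.86 ± 0.20 (adjusted p = 0.0532). Single libraries moved these counts. With Cort, 5 domains were higher when vehicle replicate 1 or 2 was left out, and 6 when vehicle replicate 3 was. Leaving out Cort replicate 1 gave 8, and leaving out Cort replicate 3 gave 5. The 4 lower domains became 0 when vehicle replicate 3 was dropped, and 1 each when vehicle replicate 2, Cort replicate 1 or Cort replicate 3 was. With Dex, 53 were higher and 32 lower without Dex replicate 2, and 13 and 7 without Dex replicate 3; 14 to 17 were higher without Dex replicate 1 or any single vehicle library.

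**Figure D1:**
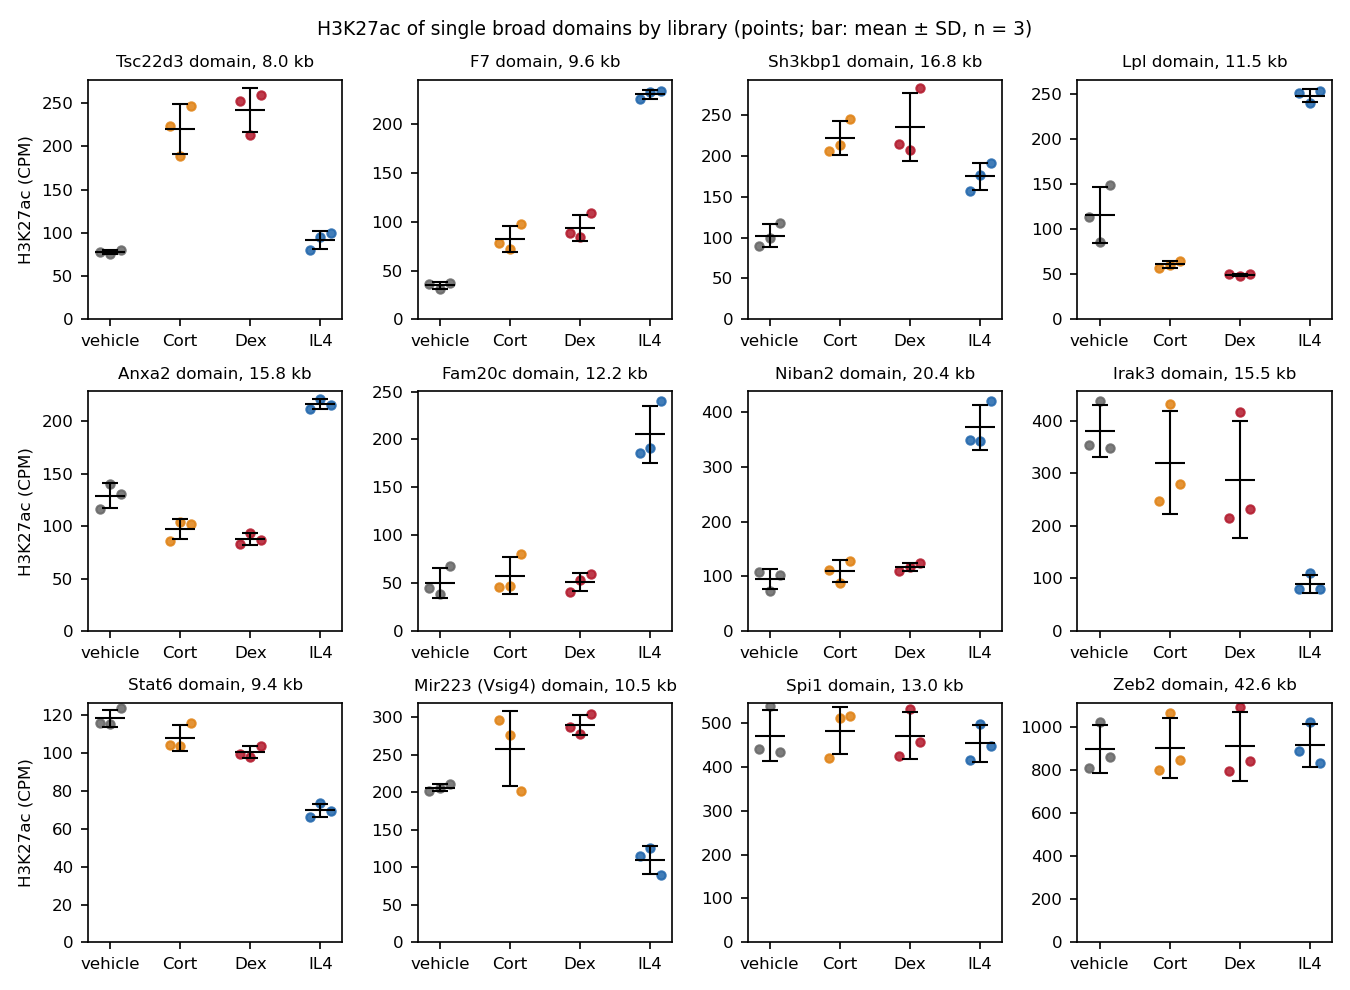
H3K27ac in TMM-normalised CPM of 12 broad domains, by group, with 1 point per library and the mean ± SD of 3 libraries as a bar. The glucocorticoid libraries stand above vehicle at Tsc22d3, F7 and Sh3kbp1 and below it at Lpl and Anxa2. Those of Dex, but not all of Cort, stand above vehicle at Mir223 and below it at Stat6. IL4 stands apart at F7, Lpl, Anxa2, Fam20c, Niban2, Irak3, Stat6 and Mir223, and the groups overlap at Spi1 and Zeb2.

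The domains lower with glucocorticoids were led by the one in Lpl, which encodes lipoprotein lipase. This 11.5 kb domain at chr8:68905560-68917015 held 114, 86.1 and 148 CPM in vehicle, 57.0, 60.7 and 64.9 CPM with Cort, 49.9, 47.6 and 50.3 CPM with Dex and 251, 240 and 253 CPM with IL4. Both steroids lay below vehicle and IL4 above it, with -0.93 ± 0.16 with Cort, -1.24 ± 0.16 with Dex and 1.10 ± 0.16 with IL4 (edgeR adjusted p = 0.0102, 7.94e-04 and 2.93e-04). In the direct contrast, IL4 stood 2.33 ± 0.17 above Dex (edgeR adjusted p = 1.22e-06). A second domain of 16.9 kb, on the same chromosome and named by position for Slc18a1, fell by 0.64 ± 0.15 with Cort and by 0.92 ± 0.15 with Dex, and IL4 stood 1.21 ± 0.15 above Dex. The other 2 domains lower with Cort lay in Fat3, a protocadherin gene (-0.63 ± 0.12), and Specc1 (-0.51 ± 0.12), and both were lower with Dex as well (-0.84 and -0.65). With Dex, a domain near Acta1 had the lowest value, -1.29 ± 0.27 (edgeR adjusted p = 0.0141); its Cort value was -0.83 ± 0.26 (adjusted p = 0.158). The domain over Fcrls, an Fc receptor-like gene of mouse macrophages and microglia, was lower with Dex (-1.10 ± 0.23) and with IL4 (-1.10 ± 0.23). Anxa2, a calcium-dependent membrane-binding protein whose domain also holds the Mir3109 hairpin, had 116, 140 and 131 CPM in vehicle, 85.9, 104 and 102 CPM with Cort, 82.8, 93.8 and 86.8 CPM with Dex and 212, 221 and 215 CPM with IL4. Its values were -0.56 ± 0.12 with Dex and 0.74 ± 0.12 with IL4 (edgeR adjusted p = 0.0147 and 4.79e-04).

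Long H3K27ac peaks were also set out by the number of GR peaks they overlapped. Without a GR peak the median log2 change was 0.02 with Cort and 0.01 with Dex, and 4 of 480 domains were higher and 2 lower with Cort, 11 and 7 with Dex. With 1 GR peak the median was 0.15 with each, and 10 of 282 were higher and 2 lower with Cort, 22 and 5 with Dex. In the 154 peaks outside the definition, with 2 or more GR peaks, it was 0.22 with Cort and 0.24 with Dex, and 18 were higher and 1 lower with Cort, 25 and 1 with Dex. With the replicate number as a block, the 480 domains without a GR peak had 56 higher and 50 lower with Cort and the 282 with 1 had 83 and 12. For Dex the same fit gave 78 and 89, and 87 and 21. IL4 medians were 0.04, 0.14 and 0.10 in the same 3 classes, with 112 higher and 66 lower, 75 and 48, and 40 and 23. How the GR peaks of the treated and untreated libraries were merged into 1 list is not given in the sources used here, so the class may depend on the treatment. The differences between classes were not tested.

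**Figure D2:**
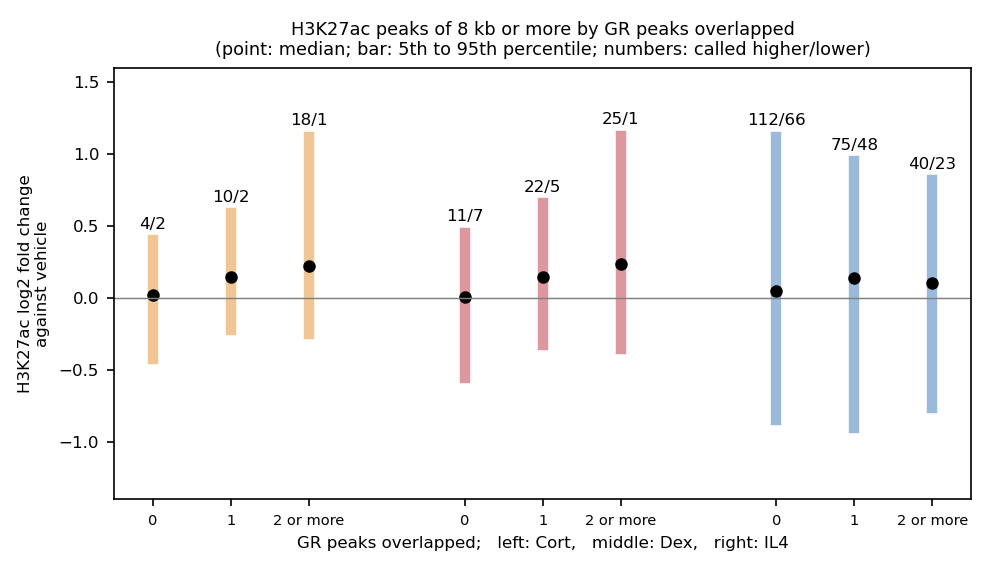
Log2 fold change of H3K27ac against vehicle for peaks of at least 8 kb that overlap 0, 1, or 2 or more GR peaks, for Cort, Dex and IL4, with the median as a point, the 5th to 95th percentile as a bar and the numbers called higher and lower above. The steroid medians stand near 0 without a GR peak and at 0.15 with 1, while the IL4 bars extend far to both sides in each class.

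The 282 GR peaks inside broad domains showed where the receptor itself was measured. Of these, 252 had enough counts to test among 5183 GR peaks. With Cort, 54 were higher and 5 lower, and with Dex 55 and 1, in edgeR with batch as a covariate at an adjusted p under 0.05. Over all tested GR peaks 12.8% were higher and 14.8% lower with Cort, and 14.7% and 15.6% with Dex, so the share called higher inside the domains (21.4% and 21.8%) was above that of all GR peaks and the share called lower (1.98% and 0.397%) below it. The median log2 change was 0.43 and 0.47 inside the domains, against 0.17 and -0.12 over all tested GR peaks. With IL4, 0 of the 252 and 0.0% of all GR peaks were called by edgeR; 35 and 612 had an unadjusted p under 0.05, and DESeq2 called 0 and 4. The IL4 libraries of GR are all in batch 2.

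The GR peak of 485 bp in the Dusp1 domain had the smallest p. It held 11.3, 13.4, 15.9 and 23.3 CPM in the vehicle libraries, 285, 218, 187 and 273 with Cort, 298, 215, 199 and 266 with Dex and 12.3, 31.4 and 27.8 with IL4. The steroid libraries did not overlap the others, and the log2 change was 3.92 ± 0.35 with Cort and 3.94 ± 0.35 with Dex (edgeR adjusted p = 2.96e-05 and 1.47e-05). Next to this rise the domain's H3K27ac rose by 0.58 and 0.65. In the Sh3kbp1 domain GR rose by 3.53 ± 0.55 and 3.74 ± 0.54, and in the Zmiz1 domain by 3.17 ± 0.48 and 3.15 ± 0.48, next to H3K27ac changes of 1.11 and 1.20, and 1.05 and 1.05. The GR peak in the Irf2 domain rose by 2.04 ± 0.28 and 2.07 ± 0.28, and that in the Bcl2l1 domain, which names the anti-apoptotic protein Bcl-xL, by 2.19 ± 0.23 and 2.23 ± 0.24. The H3K27ac values of the Bcl2l1 domain were 0.42 and 0.37 and were not called. GR in the Tsc22d3 domain had 1.42 ± 0.41 and 1.68 ± 0.40 (edgeR adjusted p = 0.0189 and 0.00565). In the F7 domain GR had 0.85 ± 0.44 with Dex and in the Lpl domain -0.91 ± 0.43, and neither was called (edgeR adjusted p = 0.156 and 0.126).

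In the 54 domains whose GR peak was higher with Cort, the median H3K27ac change was 0.36, and 8 were higher and 0 lower. In the 193 whose GR peak was not called it was 0.13, with 2 higher and 2 lower. With Dex the 55 domains with a higher GR peak had a median of 0.33, with 14 higher and 0 lower, and the 196 others 0.11, with 7 and 5. The 5 GR peaks lower with Cort lay in domains of Cfp (properdin), Lipa (lysosomal acid lipase), Coro1a, Clec2d and Lgmn, and the Cfp peak was the 1 lower with Dex. None was lower without the batch term, without the count filter or with total-count scaling. Other settings did call domain GR peaks lower: 6 with Cort and 5 with Dex in DESeq2, 4 and 1 in batch 1 alone, and 2 and 0 with a replicate block. Total-count scaling moved the median of all GR peaks by 0.78 with Cort and 0.98 with Dex and called 117 and 156 domain peaks, all higher. In batch 1 alone 56 and 49 of 218 testable domain peaks were called; in batch 2 alone 0 of 224 were, with 31 and 39 at an unadjusted p under 0.05. The Dusp1 values were 4.48 and 4.46 in batch 1 and 3.43 and 3.52 in batch 2, and those of Sh3kbp1 5.29 and 5.22, and 2.41 and 3.00, for Cort and Dex.

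**Figure D3:**
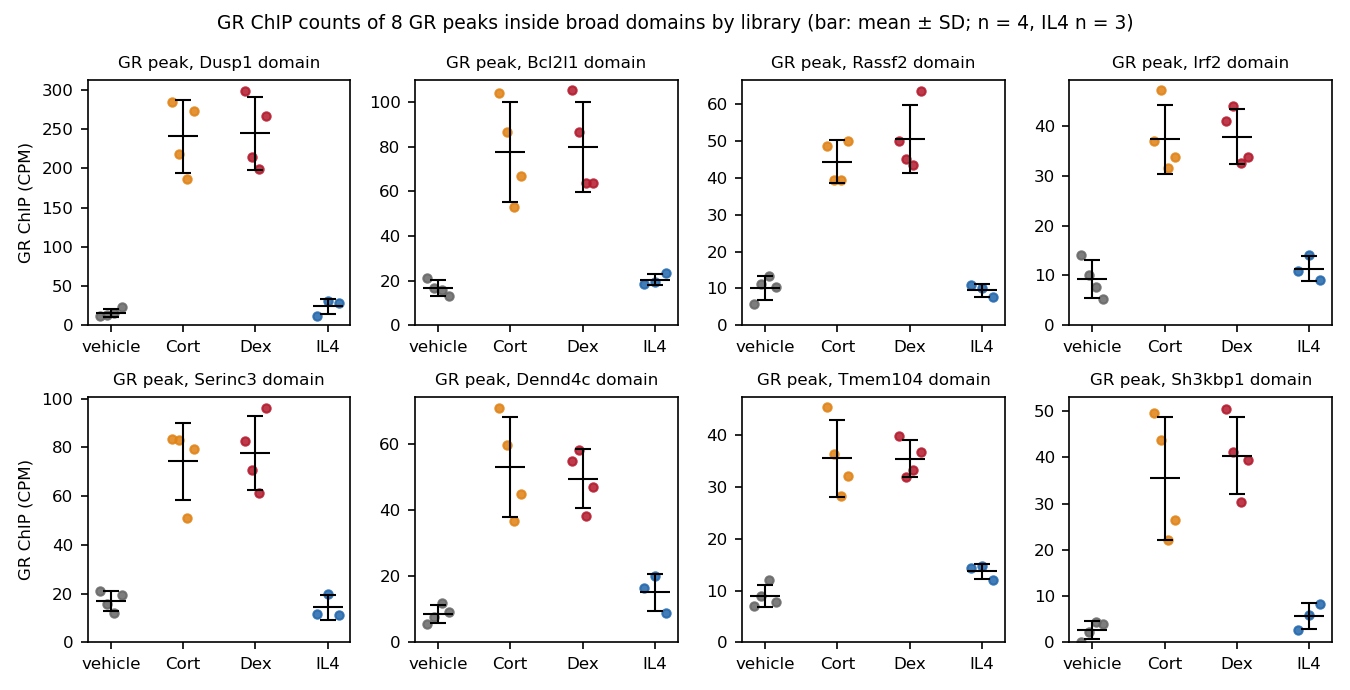
GR ChIP level in TMM-normalised CPM of the 8 GR peaks inside broad domains with the smallest p for Dex, by group, with 1 point per library and the mean ± SD as a bar (n = 4, IL4 n = 3). At the Dusp1 domain the steroid libraries sit between 187 and 298 CPM and all vehicle and IL4 libraries at or under 31.4.

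IL4 altered far more of the broad domains than either steroid. It raised 187 of 762 and lowered 114 at an adjusted p under 0.05 in edgeR, or 24.5% and 15.0%. Of all tested peaks 14.7% were higher and 12.9% lower. With the replicate number as a block 300 were higher and 215 lower, where 21.9% and 21.6% of all peaks were. The share called rose with length and with it the precision: it was 19.6% in both directions together under 1 kb, with a median standard error of 0.42, and 37.0% from 4 to 8 kb, with 0.17. In the broad domains it was 39.5%, with 0.15, so the higher share came with smaller errors. The median absolute log2 change was 0.35 in the domains and 0.50 over all peaks, and the 5th to 95th percentiles ran from -0.88 to 1.03 in the domains and from -1.45 to 1.71 over all peaks. Without vehicle replicate 2, 69 domains were lower, without IL4 replicate 1, 69, and without IL4 replicate 3, 68. Domains between genes were called most often, 47 of 96 (31 higher and 16 lower), and domains with a gene start least often, 106 of 354 (65 and 41); the difference was not tested.

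The largest rise, 2.94 ± 0.22 on the log2 scale, was in a domain inside Arhgap12, a GTPase-activating protein gene, from 18.1, 10.6 and 15.5 CPM in vehicle to 126, 110 and 101 with IL4 (edgeR adjusted p = 2.47e-06). Cort (17.2, 18.9 and 12.1) and Dex (18.1, 17.9 and 13.8) overlapped vehicle there. F7 followed, described above, and then a domain just outside Ncf4, a subunit of the phagocyte NADPH oxidase, with 31.7, 20.1 and 27.04 CPM in vehicle and 131, 118 and 137 with IL4 (log2 2.29 ± 0.22). The Csf2rb2 gene, for a beta chain of the IL3 receptor, starts in a domain next along that chromosome, which held 55.3, 44.6 and 68.5 CPM in vehicle and 157, 171 and 193 CPM with IL4 (log2 1.63 ± 0.19; it was chosen after its values were seen). A domain in Atf1, a CREB-family factor, rose by 2.11 ± 0.21. At Fam20c, a secretory-pathway kinase, the counts were 45.1, 38.1 and 68.0 CPM in vehicle, 45.6, 47.2 and 80.01 CPM with Cort, 40.7, 53.5 and 59.1 CPM with Dex and 185, 191 and 240 CPM with IL4. IL4 stood apart there, and the other 3 groups overlapped (log2 2.02 ± 0.25, edgeR adjusted p = 1.07e-04). Niban2, formerly Fam129b, had 2 domains side by side, of 28.3 and 20.4 kb, and both were higher with IL4, by 1.16 ± 0.14 and 1.98 ± 0.17. A domain of 10.1 kb at chr10:67708554-67718616 with no named gene within 50 kb rose from 80.2, 51.6 and 79.8 to 251, 237 and 251 CPM. Near Dusp4, a nuclear MAP kinase phosphatase, IL4 gave 1.99 ± 0.22, and the direct test against Dex 2.77 ± 0.23.

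The largest fall was over Fpr1 and Fpr2, the genes of the formyl peptide receptors that sense bacterial peptides. The 18.6 kb domain held 279, 444 and 297 CPM in vehicle, 209, 502 and 153 CPM with Cort, 182, 484 and 164 CPM with Dex and 53.1, 77.8 and 35.1 CPM with IL4. All IL4 libraries lay below all others. In every group the library numbered 2 was the highest. The log2 change was -2.62 ± 0.49, with an edgeR adjusted p of 0.00174, or 6.61e-12 with the replicate number as a block. A second domain beside it, of 11.4 kb, changed by -2.55 ± 0.48. Irak3, which encodes IRAK-M, an inhibitor of Toll-like receptor signalling, held 354, 437 and 349 CPM in vehicle, 248, 432 and 280 CPM with Cort, 214, 416 and 233 CPM with Dex and 80.2, 110 and 79.1 CPM with IL4 in a 15.5 kb domain. Its log2 change with IL4 was -2.08 ± 0.27 (edgeR adjusted p = 1.18e-04), and the steroid libraries overlapped vehicle. With the replicate block Dex gave -0.46 and Cort -0.28 (edgeR adjusted p = 0.00120 and 0.0507). Prex1, an activator of Rac, and Cd55, a complement-decay protein, had -1.97 ± 0.23 and -1.81 ± 0.39. Other falls lay in Sbf2, Ptbp3, Acsl5 and Egln2, between -1.64 and -1.35.

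The summed H3K27ac over all tested peaks of 11 macrophage markers was 3646 to 4246 CPM in vehicle and 3296 to 3784 with IL4. That of the neutrophil list was 151 to 179 and 235 to 283, of the osteoclast list 469 to 595 and 752 to 876, and of the lymphoid list 223 to 297 and 137 to 211. Of these, 4 of 11 neutrophil markers (Ly6g, Mpo, Ngp and S100a9) and 6 of 13 lymphoid markers had no tested peak. With the steroids the macrophage sum was 4091 to 4770 CPM (Cort) and 3988 to 4804 CPM (Dex), and the lymphoid sum 183 to 244 and 171 to 226. The fibroblast sum was 149 to 166 CPM with Dex and 125 to 141 in vehicle, and the erythroid and megakaryocyte sum 134 to 157 with IL4 and 166 to 173 in vehicle; 8 of 11 and 7 of 10 markers of these lists had no tested peak. Their part in the result was not tested.

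Across gene groups, lysosomal and lipid genes had mostly higher domains under IL4. Of 13 domains at 10 lysosome genes, 9 were higher, 2 lower and 2 not called, with a median log2 change of 0.52 against 0.08 for all broad domains and -0.02 for all peaks. Of all broad domains 24.5% were higher and 15.0% lower with IL4, and of all tested peaks 14.7% and 12.9%. The 9 lay at 7 genes, and domains of 1 gene are not independent. The difference from these shares was not tested. Atp6v0a1, a subunit of the vacuolar proton pump, rose from 127, 139 and 129 to 280, 291 and 294 CPM (1.13 ± 0.10, edgeR adjusted p = 6.10e-06), with no overlap. Hexa, a subunit of beta-hexosaminidase, rose by 0.70 ± 0.11, Ctsk by 1.02 ± 0.20, and both domains of Mitf, which encodes a factor of the lysosomal gene programme, by 0.68 ± 0.13 and 0.45 ± 0.14. Both domains of Atp6v0d2, another pump subunit, were lower (-0.51 ± 0.18 and -0.47 ± 0.14). With the steroids 1 of these 13 was higher, Lamp1, and 0 were lower. Of 9 domains at 8 lipid and cholesterol genes IL4 raised 5 and lowered 0, with a median of 0.49: Lpl, Soat1 (cholesterol esterification, 0.59 ± 0.12), both of Npc1 (lysosomal cholesterol export, 0.62 ± 0.13 and 0.84 ± 0.26) and Plin2 (lipid droplets, 0.37 ± 0.11). Abca1, the cholesterol exporter, had -0.71 ± 0.28 and was not called in this fit, without the replicate block. Cort and Dex raised 0 of the 9 and lowered 1, Lpl. With the replicate block, IL4 raised 10 and lowered 2 of the lysosomal domains. It raised 8 and lowered 1 of the 9 lipid domains in that fit, so all of them, Abca1 included, were called. In the same fit Cort raised 4 and lowered 2 of the lipid domains and Dex 3 and 2, and each steroid raised 1 and lowered 1 of the lysosomal ones.

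The 19 domains at 15 macrophage identity genes split: IL4 raised 4 and lowered 3, with a median of 0.03, and neither steroid changed any in the fit without the block. The 4 were near Lgals3, which encodes galectin-3 (1.45 ± 0.12), at Tfec (0.70 ± 0.18) and both of Mitf; the 3 were at Coro1a, an actin-binding protein (-0.90 ± 0.13), Maf, a macrophage transcription factor (-0.51 ± 0.13), and 1 of 3 at Zeb2 (-0.49 ± 0.16). Spi1 held 439, 538 and 434 CPM in vehicle, 419, 511 and 515 CPM with Cort, 425, 530 and 457 CPM with Dex and 414, 497 and 448 CPM with IL4. The groups overlapped, and its log2 values were 0.03 ± 0.13, 0.00 ± 0.13 and -0.06 ± 0.13. The 42.6 kb Zeb2 domain held 809, 1024 and 862 CPM in vehicle, 802, 1062 and 844 CPM with Cort, 796, 1094 and 842 CPM with Dex and 888, 1025 and 833 CPM with IL4, also with overlap, and had 0.01 ± 0.15, 0.02 ± 0.15 and 0.03 ± 0.15. With the replicate block, 4 identity domains were higher and 1 lower with Cort, 6 and 3 with Dex, and 5 and 6 with IL4.

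Of 7 domains at 5 genes of the IL4 and STAT6 list, 3 were higher and 3 lower with IL4, with a median of 0.28. Higher were those near Bcar3 (1.38 ± 0.27), Pdcd1lg2, which encodes the checkpoint ligand PD-L2 (0.89 ± 0.18 at 1 of its 2), and Tfec. Lower were the pair at Atp6v0d2 and the one beside Stat6 itself. The Stat6 domain held 116, 115 and 124 CPM in vehicle, 104, 104 and 116 CPM with Cort, 99.5, 98.2 and 104 CPM with Dex and 66.3, 73.5 and 69.4 CPM with IL4, and every IL4 library lay below every other (log2 -0.76 ± 0.10, edgeR adjusted p = 1.86e-04). Arg1, Retnla and most other genes of the list had no domain of this length: 36 of its 38 genes had a tested H3K27ac peak, and 5 had a broad domain. Among 20 domains of 14 transcription factor genes IL4 raised 3, 1 beside Etv3 (1.62 ± 0.14) and both of Atf3 (1.03 ± 0.13 and 0.87 ± 0.14), and lowered 1, in Zeb2; each steroid raised 1, Klf13. Of 7 inflammatory-gene domains IL4 raised 0 and lowered 1, Irak3, and the steroids changed 0. Of 4 interferon-response domains, the Irf2 domain was higher with each of the 3 agents. Among 21 adhesion and cytoskeleton domains IL4 raised 4 and lowered 4, and Dex lowered 1, Anxa2. Among 22 signalling domains IL4 raised 3 and lowered 4, and each steroid raised 1, Dusp1. Of 10 domains at scavenger and phagocytosis genes IL4 raised 1, Itgb5, and lowered 1, Elmo1. With the replicate block IL4 raised 8 and lowered 7 adhesion domains, 5 and 9 signalling domains, 5 and 3 transcription factor domains, 4 and 1 scavenger domains, 2 and 2 inflammatory domains and 4 and 3 of the IL4 and STAT6 list. With Dex that fit raised 0 and lowered 2 inflammatory domains, and raised 6 and lowered 2 transcription factor, 3 and 0 interferon, 3 and 3 scavenger, 3 and 3 signalling, 2 and 5 adhesion and 1 and 1 IL4 and STAT6 domains. With Cort it was 0 and 0 inflammatory, 4 and 0 transcription factor, 2 and 0 interferon, 0 and 2 scavenger, 2 and 2 signalling, 1 and 4 adhesion and 0 and 0 IL4 and STAT6 domains. Against the shares of all broad domains with IL4 without the block, 24.5% higher and 15.0% lower, and of all peaks, 14.7% and 12.9%, nothing particular is read from the counts of the smaller or evenly split lists.

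**Figure D4:**
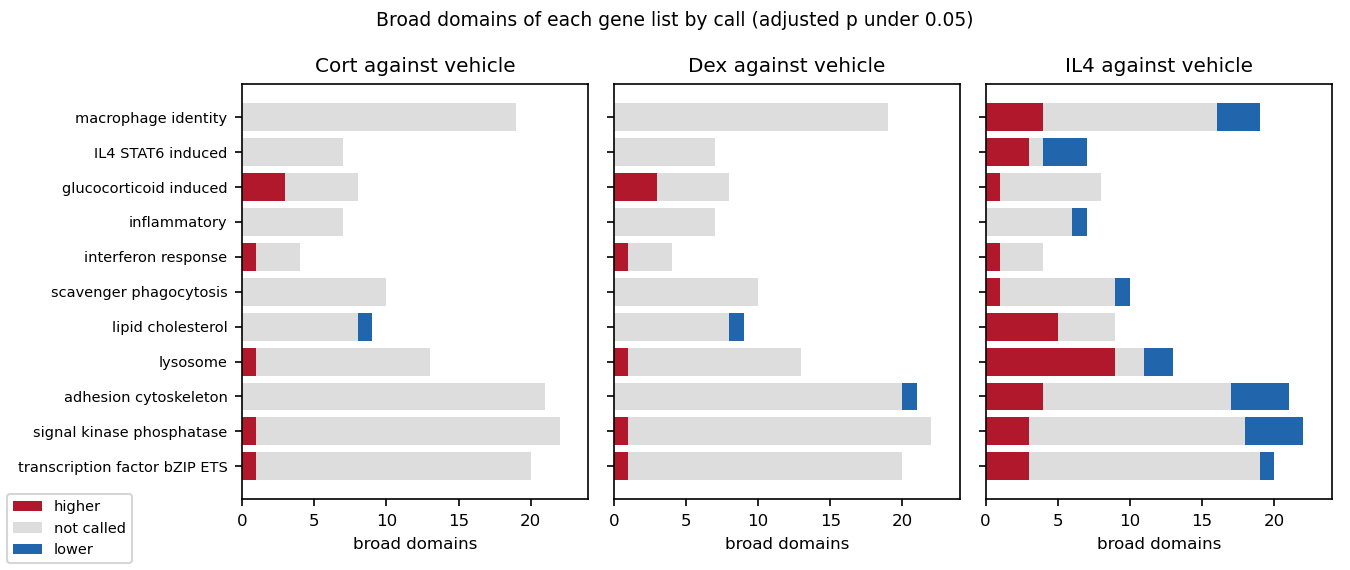
Number of broad domains called higher (red), lower (blue) or not called (grey) for each gene list, with Cort, Dex and IL4 against vehicle; the x axis counts domains. Lysosome has 9 of 13 and lipid cholesterol 5 of 9 higher with IL4, and glucocorticoid induced has 3 of 8 higher with each steroid.

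The direct contrasts between treatments set their libraries against each other, with the spread estimated over all H3K27ac libraries, vehicle included. Their doses differ. Between Dex at 100 nM and Cort at 500 nM, 0 of 762 domains and 0.0% of all tested peaks were called by edgeR, and DESeq2 called 0 domains. In edgeR 1 domain and 793 of 59881 peaks had an unadjusted p under 0.05. Both numbers lie below the share that this threshold passes by chance, so the intervals below, from the fit without the replicate block, may be too wide. With the block 0 domains and 0 peaks were called. The difference, Dex minus Cort, ranged from -0.46 to 0.23 on the log2 scale over the domains. Its 95% interval lay within 0.5 of 0, on the log2 scale, for 571 domains (74.9%), against 18.8% of all tested peaks. At Tsc22d3 the difference was 0.14, with an interval of -0.14 to 0.42, at F7 0.18 (-0.12 to 0.49) and at Lpl -0.31 (-0.65 to 0.04). For the remaining domains the interval reached beyond 0.5.

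Between IL4 and Dex, 159 domains were higher and 121 lower with IL4, where 14.6% of all tested peaks were higher and 12.1% lower; with scaling by low-count peaks the numbers were 78 and 93, and with the replicate block 254 and 231. Of the 480 domains without a GR peak 108 were higher and 54 lower with IL4, and of the 282 with 1 GR peak 51 and 67. Of the 154 long peaks with 2 or more GR peaks 18 were higher and 50 lower. The largest positive differences were near Dusp4 (2.77 ± 0.23), at Arhgap12 (2.76 ± 0.22) and at Lpl (2.33 ± 0.17). The lowest were in the pair at Fpr1 (-2.47 ± 0.48 and -2.32 ± 0.49) and at Cd55 (-2.12 ± 0.39). At Tsc22d3 IL4 stood -1.39 ± 0.13 from Dex and at F7 1.30 ± 0.14 (edgeR adjusted p = 1.08e-05 and 3.08e-05).

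A gene with several broad domains allowed its parts to be compared. In all, 100 genes had 2 or more domains, 23 had 3 or more and 4 (Ahnak, Asap1, Rbm47 and Susd6) had 4. With IL4, 65 of the 100 had at least 1 called domain. In 17 all domains were higher, in 9 all were lower, and in 2, Nckap1l and Plekhm1, the calls went both ways. Of all broad domains 39.5% were called with IL4, and of all tested peaks 27.6%. A gene with several domains has more chances of a call, so nothing particular is read from the 65. All 4 domains of Ahnak, a giant scaffold protein, were higher (0.48 to 1.05), as were all 3 of Grb2, the receptor adaptor, and of Metrnl, a secreted factor. All 3 of Lyn, a Src-family kinase, were lower (-1.33 to -0.92), with the library numbered 2 the highest of each vehicle, Cort, Dex and IL4 group. In Plekhm1, a lysosomal trafficking adaptor, 1 domain had -1.76 ± 0.29 and the other 0.58 ± 0.16. With Dex 9 of the 100 had a called domain and with Cort 2, where 5.91% and 2.36% of all broad domains were called. Of all tested peaks the shares were 5.24% and 1.55%. Domains of 1 gene lie close together and are not independent.

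**Figure D5:**
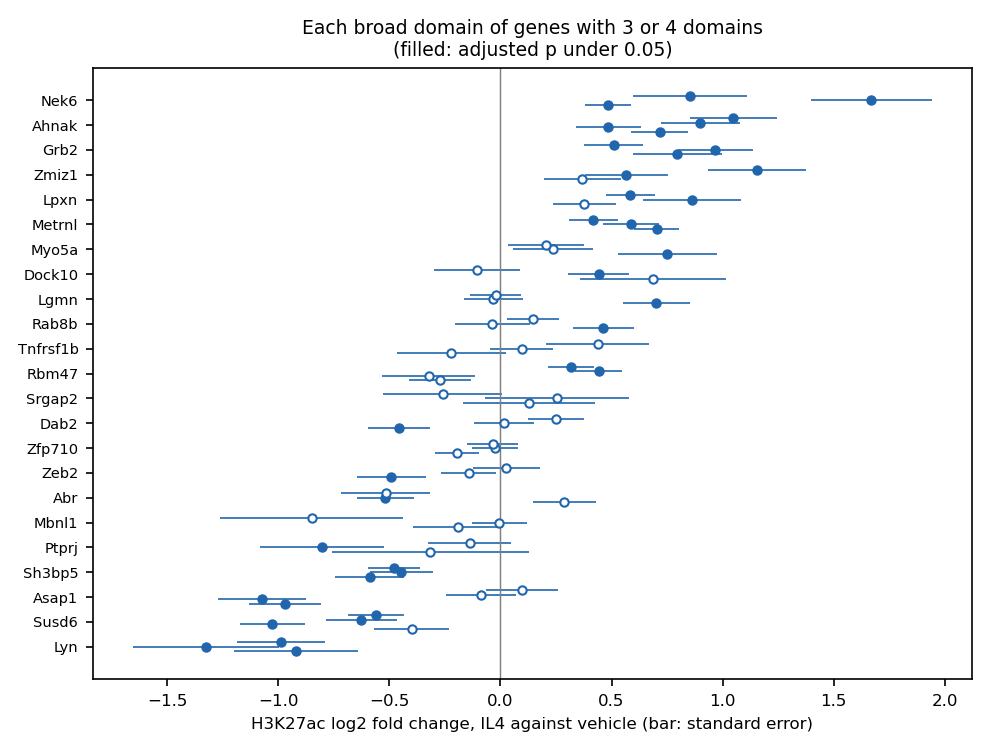
Log2 fold change of H3K27ac with IL4 against vehicle for each domain of the 23 genes with 3 or 4 broad domains; bars are standard errors and filled points passed an adjusted p under 0.05. Domains of Nek6, Ahnak, Grb2 and Metrnl all stand above 0 and those of Lyn, Susd6 and Sh3bp5 below.

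Shorter H3K27ac peaks within 50 kb, a median of 11 per domain, mostly had the same direction as the domain. Around the 187 domains higher with IL4 their median log2 change was 0.43, and it was above 0 for 174. Around the 114 lower domains it was -0.56, and below 0 for 100. Around the 461 that were not called it was -0.03. The same held around the 33 domains higher with Dex (median 0.52, above 0 for 30) and the 12 lower ones (-0.68, below 0 for 11). Over the 761 domains with such a neighbour Pearson's r between a domain's change and the median of its neighbours, from the same libraries, was 0.65 with Cort, 0.67 with Dex and 0.71 with IL4, given as a description.

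Values at the length limit are given as a description. The 3 shortest domains lay at Rpl3 (8001 bp, 26.7 ± 3.81 CPM per kb in vehicle, SD, n = 3), Rab8b (8005 bp, 14.02 ± 2.13) and Manba (8019 bp, 9.76 ± 1.05). The 3 longest peaks below it lay at Ikzf1 (7996 bp, 28.5 ± 3.12), Tpm3 (7994 bp, 20.4 ± 2.31) and Wdfy3 (7989 bp, 13.3 ± 2.81). With IL4 the log2 values were -0.22, -0.04 and 0.28 inside and -0.22, -0.04 and -1.10 outside.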

How the data were processed

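ChIP-seq of H3K27ac (12 libraries) and of the glucocorticoid receptor (15 libraries) was analysed; the H3K27ac input was not analysed here. The authors deposited raw read counts per peak over 1 common peak set per assay, on mm10. fastp, Bowtie2, SAMtools, MACS2 and featureCounts are named, without versions, in the submitters' processing notes; how peaks were merged is not given in the sources used here. Columns headed C were matched to vehicle by elimination, since every other heading names a treatment. GR was crosslinked with DSG and formaldehyde and H3K27ac with formaldehyde, per the labels' protocols.

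Counts were tested with edgeR 4.0.16 in R 4.3.3 (filterByExpr, TMM, quasi-likelihood test) over all libraries of an assay, for GR with batch as a covariate. P-values were adjusted by Benjamini-Hochberg over all tested peaks, and a peak was called at an adjusted p under 0.05. CPM are scaled to counts in peaks, so changes are relative to other peaks. Counting depth limits the precision, and PCR duplicates are not independent molecules. The script was tested on simulated data. DESeq2 1.42.0, other scalings, no count filter, 2-group fits, a replicate block, other length limits and left-out libraries were alternatives. Same-numbered H3K27ac libraries deviated together (residual correlation 0.268 to 0.678 over 18 pairs, against -0.449 to 0.0406 over 36 others), so the numbers pair them; GR numbers did not (-0.197 to 0.187).

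Overlap meant at least 1 bp. Domains were named by the nearest gene within 50 kb. Named were the 10 highest and 10 lowest called domains per treatment whose libraries did not overlap vehicle, the 10 densest, the 10 longest, up to 4 per gene list, 3 at each side of the length limit and domains with a called GR peak; other names were chosen after their values were seen. Some items that this rule names are not reported here. The members and lists were chosen with earlier results of these data known.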

Additional observations from a re-analysis of the deposited data

Results flagged for a closer look

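In the GR peak of the Serinc3 domain, Cort replicate 3 had 50.8 CPM, and the other 3 Cort libraries had 83.4, 83.2 and 79.3 CPM. Its gap to the nearest of the others, divided by the range of the group, was above Dixon's 95% critical value for 4 values. Of 24 groups of 4 libraries tested, this was the 1 that passed, and chance passes about 1 in 20.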

How the results depend on the processing

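Of 54 named domain and treatment pairs, 0 changed direction. They were chosen as called with every treated library beyond every vehicle library, so their direction was largely fixed by the choice. Single left-out libraries ended the call in 73 of 324 values and other settings in 31 of 378. With scaling by low-count peaks the higher and lower counts were 5 and 0 (Cort), 9 and 6 (Dex), and 99 higher with IL4; IL4 against Dex gave 171. The replicate block gave 139 and 62, 165 and 110, 300 and 215, and 485. With only the 2 groups compared, Cort gave 5 and 0 and Dex 20 higher. DESeq2 gave 24 higher with Cort. Total-count scaling gave 28 lower with Dex and, for GR peaks in domains, 117 (Cort) and 156 (Dex); batch 2 alone gave 0 and 0. Requiring an absolute log2 change of at least 1 left 4 and 0, 6 and 4, 43 and 30, and 75. At 10 kb or more the counts were 7 higher (Cort), 16 higher (Dex), 96 and 58 (IL4) and 145. At 6 kb or more they were 38 and 8, 81 and 40, 348 and 260, and 593. Domains with no GR peak gave 4 and 2, 11 and 7, 112 and 66, and 162; with any number of GR peaks 32 (Cort) and 58 (Dex) were higher. The length and GR limits change the number of domains; for the rest the cause was not tested.

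Leaving out 1 library gave 5 to 16 higher and 0 to 5 lower (Cort), 13 to 53 and 6 to 32 (Dex), 142 to 183 and 68 to 112 (IL4), 208 to 251 (IL4 against Dex) and 0 to 0 (Dex against Cort). For GR it gave 38 to 64 (Cort, with 38 without vehicle replicate 2), 42 to 64 (Dex) and 0 to 0 (IL4). The GR numbers pair no libraries; a replicate block called 62 GR peaks up and 2 down for Cort, and 65 and 0 for Dex. The batch 1 fit was chosen after seeing the data.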
